A study of Mus musculus with 8 samples.

Results

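Neutrophils carry the machinery for several lytic ways to die. The 9 genes described here encode its effectors, namely *Padi4* and *Padi2* for the release of neutrophil extracellular traps (NETs), *Casp4*, *Gsdmd* and *Ninj1* for pyroptosis and membrane rupture, and *Ripk1*, *Ripk3*, *Mlkl* and *Casp8* for necroptosis and its control. They were chosen by name and found by Ensembl identifier. All 9 are among the 55414 genes listed in the files, and all 9 passed the filter on low counts that left 16778 genes for testing.

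The mice were FVB animals aged 10 weeks, kept in SOPF housing, of 2 genotypes. There were 4 WT and 4 *Cxcr2-/-* mice, the latter carrying a constitutive deletion brought onto FVB by repeated backcrossing, so every cell of the animal lacked the receptor. Spleen cells were selected for CD11b and sorted as CD45+ CD11b+ Ly6G+ F4/80- neutrophils, and the RNA of each mouse gave 1 library. Expression is given as CPM, the counts on a gene relative to all counts of the library, after TMM scaling. Folds and log2 fold changes set *Cxcr2-/-* over WT. A change was called at an adjusted p under 0.05 by edgeR's quasi-likelihood test, with p-values adjusted by Benjamini-Hochberg over all genes tested.

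In a NET, chromatin is thrown out of the cell after peptidylarginine deiminases have converted histone arginines to citrulline and the chromatin has loosened. In pyroptosis, an inflammatory caspase cuts gasdermin D, a fragment of which makes pores in the plasma membrane, and ninjurin-1 then clusters in the membrane and tears it open. In necroptosis, RIPK1 recruits RIPK3, RIPK3 phosphorylates the pseudokinase MLKL, and MLKL breaches the plasma membrane unless caspase-8 cuts the kinases first.

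Counts on genes per library ran from 34220182 to 46233555 for WT mice and from 37549648 to 43789253 for *Cxcr2-/-* mice, and *Cxcr2* itself averaged 1956 ± 221 CPM in the former and 17.1 ± 3.46 CPM in the latter (SD, n = 4 each). The neutrophil gene *Ly6g* ran from 166 to 263 CPM in WT libraries and from 488 to 597 CPM in *Cxcr2-/-* libraries. The neutrophil markers did not all move that way. Of 10, with *Ly6g* and *Cxcr2* among them, 6 rose, 3 fell and 1 did not pass, with a median log2 fold change of 0.57. Pairs outside any gene were 31.4% to 41.5% of all pairs in WT and 26.7% to 31.9% in *Cxcr2-/-* libraries, so a fit with that percent as a covariate also takes up part of the genotype. The 10 most counted genes took 9.45% to 11.6% of counts in WT against 17.0% to 19.2% in *Cxcr2-/-* mice, without overlap. Libraries also differed within a group. Among the *Cxcr2-/-* libraries, numbers 3 and 4 had more RNA of the primary granule gene *Elane* (55.5 and 93.2 CPM, against 12 and 14.5) and of the monocyte gene *Ccr2* (34.4 and 45.7 CPM, against 7.48 and 8.85). WT library 2 had the most RNA of the macrophage genes *C1qa* (5.79 CPM, against 0.0578 to 1.58 in the other WT libraries) and *Mrc1* (10.3, against 0.694 to 2.67). Its summed macrophage and monocyte markers, at 715 CPM, lay within the range of the other WT libraries. The summed CPM of 8 dividing-cell genes was 281 to 331 in WT and 902 to 1005 in *Cxcr2-/-* libraries, and all 8 of them rose. Summed markers of macrophages and monocytes ran from 704 to 819 CPM in WT and from 845 to 966 CPM in *Cxcr2-/-*, those of B cells from 33.4 to 76.9 and from 16.3 to 38.8, those of dendritic cells from 9.14 to 28.6 and from 5.81 to 8.65, and those of T and NK cells from 98.1 to 118 and from 91.8 to 139.9. Most of the macrophage and monocyte sum was *Csf1r* (442 ± 41.1 CPM in WT and 232 ± 42.1 CPM in *Cxcr2-/-*, SD, n = 4 each) and *Ly6c2* (239 ± 35.1 and 627 ± 38.4 CPM), which moved in opposite directions. Of its 10 markers 2 rose and 2 fell, with a median log2 fold change of -1.01. *Cd3d* made up most of the T and NK cell sum, while *Cd3e*, *Trac* and *Cd8a* were at most 0.563 CPM in each of the 8 libraries. The median log2 fold change was -1.17 over the B cell markers, -1.07 over the dendritic markers and 0.13 over the T and NK cell markers. A fit with the non-neutrophil markers as a covariate may therefore also take up part of the genotype. What part these cells and library differences play in the results was not tested, other than in the fits named beside them. In bulk RNA, fewer cells of a type and less RNA per cell cannot be told apart.

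Of the 9 effectors, 5 rose in *Cxcr2-/-* neutrophils (*Padi4*, *Casp4*, *Ripk3*, *Mlkl* and *Casp8*), 1 fell (*Ninj1*) and 3 did not pass the test (*Padi2*, *Gsdmd* and *Ripk1*). Over all genes tested, 44.7% passed in either direction, 23.7% higher and 21% lower. Of these calls 53.0% were higher, and under upper-quartile normalization 41.2% were. The 6 that passed also changed by at least 1.5-fold, as 31.3% of all genes did, and their CPM did not overlap between the groups, as held for 41.6% of all genes. The median log2 fold change was 0.66 over the 9 effectors and 0.01 over all genes tested. Since a large share of all genes passed, the count is to be read beside those shares and the values of each gene.

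**Figure D1:**
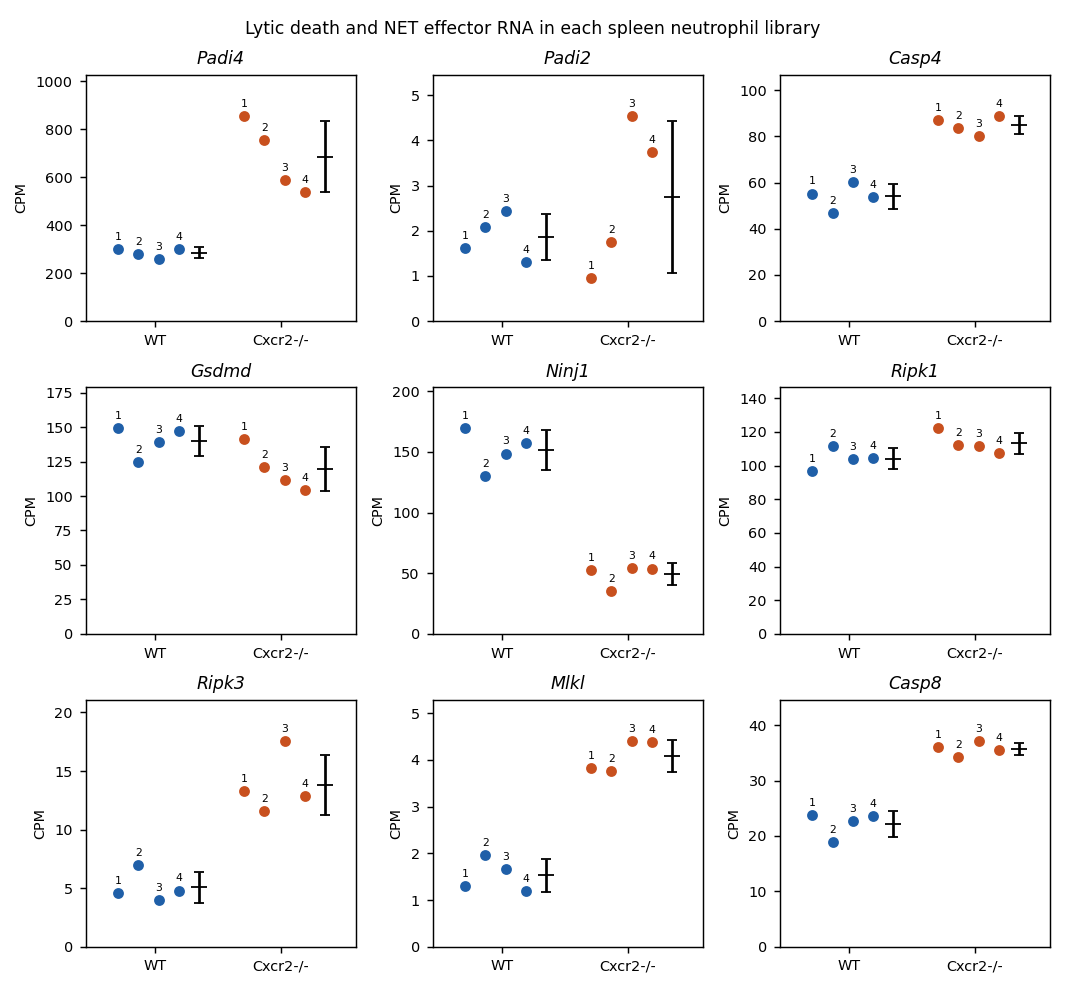
CPM (vertical axes, each from 0) of the 9 effector genes in each of the 4 WT (blue) and 4 *Cxcr2-/-* (orange) libraries, with the replicate number above each point and bars for the mean ± SD. The groups lie apart for *Padi4*, *Casp4*, *Ninj1*, *Ripk3*, *Mlkl* and *Casp8*, and overlap for *Padi2*, *Gsdmd* and *Ripk1*.

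*Padi4* encodes the deiminase that citrullinates histones in NET formation. The gene lies on the minus strand of chromosome 4 from 140745865 to 140774236 (GRCm38, GENCODE M21). Its RNA was at 302, 281, 257 and 302 CPM in WT libraries 1 to 4 and at 857, 755, 589 and 539 CPM in *Cxcr2-/-* libraries 1 to 4. Each *Cxcr2-/-* library was above each WT library, and libraries 3 and 4, the ones richer in *Elane* and *Ccr2* RNA, were the lowest of their group. The means were 286 ± 21.4 and 685 ± 147 CPM (SD, n = 4 each), a 2.40-fold rise with a log2 fold change of 1.26 ± 0.14 (SE, edgeR's quasi-likelihood test, adjusted p = 1.98e-05). With *Cxcr2-/-* libraries 1 and 2 alone against WT the log2 fold change was 1.48, and with the markers of non-neutrophil cells as a covariate it was 1.05, past the test in both.

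*Padi2*, a deiminase of the same family, was at the low end of what these libraries can measure. It lies on the plus strand of chromosome 4 from 140906344 to 140952586, and an antisense gene, *Gm13031*, shares 149 bp of its exons, so its counts carry that uncertainty. There were 73, 104, 91 and 45 counts in WT libraries 1 to 4 and 38, 63, 179 and 154 in *Cxcr2-/-* libraries 1 to 4, or 1.61, 2.09, 2.43 and 1.30 CPM against 0.961, 1.74, 4.55 and 3.74 CPM. Here *Cxcr2-/-* libraries 3 and 4 were the highest of all 8 and library 1 the lowest, so the groups overlapped. The means were 1.86 ± 0.501 and 2.75 ± 1.68 CPM (SD, n = 4 each), and the log2 fold change of 0.56 (95% interval -0.31 to 1.44) did not pass (edgeR's quasi-likelihood test, adjusted p = 0.28). Its sign rested on libraries 3 and 4, since libraries 1 and 2 alone gave -0.47 (adjusted p = 0.29), whereas the fit with the non-neutrophil covariate gave 1.13 (adjusted p = 0.037). The log2 ratio of *Padi4* to *Padi2* counts was higher by 0.89 in the *Cxcr2-/-* mice (two-sided exact permutation test, p = 0.31).

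The promoters of *Padi4*, *Casp4* and *Ninj1* are shown because these genes of NET formation and pyroptosis passed the test, *Ninj1* in the other direction from the first 2. The stretches are the 250 bases before the start site in RefSeq's GRCm38.p6, 5′ to 3′ along the strand of the gene, with motif matches in capitals. For *Casp4*, which has a pair of start sites in that table, the first was used. *Padi4* is chr4:140774204-140774453 on the minus strand, *Casp4* is chr9:5308599-5308848 on the plus strand, and *Ninj1* is chr13:49187279-49187528 on the plus strand.

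Padi4: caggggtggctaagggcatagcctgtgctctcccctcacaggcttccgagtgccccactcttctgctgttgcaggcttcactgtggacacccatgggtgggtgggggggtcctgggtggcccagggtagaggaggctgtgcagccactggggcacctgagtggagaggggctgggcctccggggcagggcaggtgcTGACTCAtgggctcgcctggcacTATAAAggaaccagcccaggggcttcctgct

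Casp4: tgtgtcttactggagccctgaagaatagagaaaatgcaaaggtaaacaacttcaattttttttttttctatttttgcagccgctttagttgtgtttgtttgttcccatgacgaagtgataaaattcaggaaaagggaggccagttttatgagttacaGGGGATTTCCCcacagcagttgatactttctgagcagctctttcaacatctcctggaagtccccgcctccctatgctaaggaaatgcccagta

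Ninj1: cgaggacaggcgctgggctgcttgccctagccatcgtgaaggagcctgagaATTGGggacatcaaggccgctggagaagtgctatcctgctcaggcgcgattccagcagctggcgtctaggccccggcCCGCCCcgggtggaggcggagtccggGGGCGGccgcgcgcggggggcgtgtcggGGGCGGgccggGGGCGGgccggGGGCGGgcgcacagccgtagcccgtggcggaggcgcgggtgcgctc

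In the *Padi4* promoter the capitals mark an AP-1 motif (TGANTCA), 54 to 48 bases before the start, and a TATA box (TATAAA), 31 to 26 bases before it. In the *Casp4* promoter they mark an NF-kB motif that matched on both strands, between 93 and 83 bases before the start. In the *Ninj1* promoter they mark 5 SP1 motifs (GGGCGG) and 1 CCAAT box (CCAAT) on the other strand. Both strands were searched for 9 motifs in the same window of all 32851 promoters of the table. Of these, 6.75% held the AP-1 letters, 12.37% the TATA letters, 3.9% the NF-kB motif, 32.74% the SP1 letters and 33.85% the CCAAT letters. Entries were found for 8 of the 9 effectors. The *Mlkl* window held no match to the 9 motifs, that of *Ripk3* had 1 SP1 match and that of *Casp8* 1 CCAAT match, so the genes of necroptosis that rose shared none of the motifs searched. A match or its absence is a description of letters and not of factor binding.

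*Casp4* encodes caspase-11, the inflammatory caspase that senses lipopolysaccharide in the cytosol and cuts gasdermin D. It lies on the plus strand of chromosome 9 from 5308828 to 5336783. Its RNA was at 55.2, 47.0, 60.1 and 53.5 CPM in WT libraries 1 to 4 and at 87.1, 83.6, 80.4 and 89.0 CPM in *Cxcr2-/-* libraries 1 to 4. The groups did not overlap and both were tight. The means were 54.0 ± 5.41 and 85.0 ± 3.83 CPM (SD, n = 4 each), a 1.58-fold rise with a log2 fold change of 0.66 ± 0.09 (SE, edgeR's quasi-likelihood test, adjusted p = 9.58e-05).

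*Gsdmd*, the pore-forming substrate of that caspase, lies on the plus strand of chromosome 15 from 75862327 to 75867408. Its RNA was at 149, 125, 139 and 147 CPM in WT libraries 1 to 4 and at 142, 121, 112 and 104 CPM in *Cxcr2-/-* libraries 1 to 4. *Cxcr2-/-* library 1 lay within the WT range, and the other 3 were below all WT libraries. The means were 139.9 ± 11.1 and 119.6 ± 16.2 CPM (SD, n = 4 each), and the log2 fold change of -0.23 (95% interval -0.46 to 0.01) did not pass (edgeR's quasi-likelihood test, adjusted p = 0.11). The call turned on the fit, since *Gsdmd* passed as lower without WT library 2 (-0.30, adjusted p = 0.047), without *Cxcr2-/-* library 1 (-0.31, adjusted p = 0.023) and with the non-neutrophil covariate (-0.37, adjusted p = 0.035). It passed as lower also under upper-quartile normalization (-0.35, adjusted p = 0.016), under scaling by total counts (-0.32, adjusted p = 0.0076) and with at least 10 counts in every library required (-0.27, adjusted p = 0.046).

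*Ninj1*, whose product ruptures the membrane after the pores have formed, was the effector that fell. It lies on the plus strand of chromosome 13 from 49187485 to 49196244. Its RNA was at 169, 130.3, 149 and 158 CPM in WT libraries 1 to 4 and at 52.4, 35.5, 54.6 and 53.9 CPM in *Cxcr2-/-* libraries 1 to 4. The highest *Cxcr2-/-* library was far below the lowest WT library, and *Cxcr2-/-* library 2 stood below the rest of its group. The means were 151 ± 16.5 and 49.1 ± 9.12 CPM (SD, n = 4 each), 3.08-fold lower in *Cxcr2-/-*, with a log2 fold change of -1.62 ± 0.14 (SE, edgeR's quasi-likelihood test, adjusted p = 2.11e-06). Over all alternatives it ran from -1.80 to -1.49 and passed in each.

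*Ripk1*, the kinase and scaffold that acts downstream of the TNF receptor, was nearly level. It lies on the plus strand of chromosome 13 from 34002363 to 34037147, and *Gm17084*, a processed pseudogene on the same strand, shares 511 bp of its exons. On the opposite strand the protein-coding gene *Serpinb6a* and the processed pseudogene *Gm17083* together share 241 bp of them, so its counts carry that uncertainty. Its RNA stood at 96.6, 112, 104 and 105 CPM in WT libraries 1 to 4 and at 122, 112, 112 and 107 CPM in *Cxcr2-/-* libraries 1 to 4. The ranges overlapped, with WT library 2 among the *Cxcr2-/-* values. The means were 104 ± 6.28 and 113 ± 6.19 CPM (SD, n = 4 each), and the log2 fold change of 0.12 (95% interval -0.06 to 0.30) did not pass (edgeR's quasi-likelihood test, adjusted p = 0.27).

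*Ripk3*, the kinase that phosphorylates MLKL, lies on the minus strand of chromosome 14 from 55784995 to 55788865. Its RNA stood at 4.55, 7.01, 3.98 and 4.80 CPM in WT libraries 1 to 4 and at 13.3, 11.6, 17.5 and 12.8 CPM in *Cxcr2-/-* libraries 1 to 4. The groups did not overlap. WT library 2, the one with the most *C1qa* and *Mrc1* RNA, was the highest WT value, and *Cxcr2-/-* library 3 was the highest of all. The means were 5.09 ± 1.33 and 13.8 ± 2.58 CPM (SD, n = 4 each), a 2.71-fold rise with a log2 fold change of 1.44 ± 0.19 (SE, edgeR's quasi-likelihood test, adjusted p = 6.84e-05). Without WT library 2 it was 1.61, and without *Cxcr2-/-* library 3 it was 1.29, past the test in both.

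*Mlkl*, the pseudokinase that carries out necroptosis, lies on the minus strand of chromosome 8 from 111311797 to 111338177. It had only 59, 98, 62 and 41 counts in WT libraries 1 to 4 and 151, 136, 173 and 180 counts in *Cxcr2-/-* libraries 1 to 4, or 1.30, 1.97, 1.66 and 1.19 CPM against 3.82, 3.76, 4.40 and 4.38 CPM. Despite the low counts the lowest *Cxcr2-/-* library was clearly above the highest WT library, which was again library 2. The means were 1.53 ± 0.355 and 4.09 ± 0.345 CPM (SD, n = 4 each), a 2.66-fold rise with a log2 fold change of 1.41 ± 0.21 (SE, edgeR's quasi-likelihood test, adjusted p = 0.000145). With the non-neutrophil covariate the log2 fold change was 1.67, past the test.

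*Casp8* encodes the caspase that cuts RIPK1 and RIPK3 and so holds necroptosis back. It lies on the plus strand of chromosome 1 from 58795374 to 58847503. Its RNA stood at 23.8, 18.8, 22.6 and 23.5 CPM in WT libraries 1 to 4 and at 36, 34.3, 37.1 and 35.5 CPM in *Cxcr2-/-* libraries 1 to 4. The groups did not overlap, and WT library 2, the highest WT library for *Ripk3* and *Mlkl*, was the lowest for *Casp8*. The means were 22.2 ± 2.31 and 35.7 ± 1.14 CPM (SD, n = 4 each), a 1.61-fold rise with a log2 fold change of 0.69 ± 0.10 (SE, edgeR's quasi-likelihood test, adjusted p = 0.00011).

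**Figure D2:**
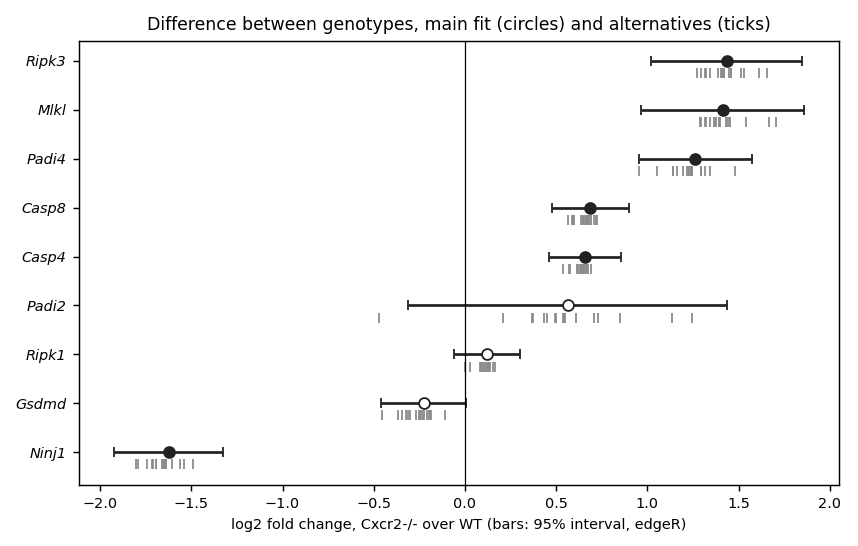
Log2 fold change (horizontal axis, *Cxcr2-/-* over WT) of each effector, with circles for the edgeR estimate (filled where the adjusted p was under 0.05), bars for its 95% interval and grey ticks for each of the 18 alternatives. *Ninj1* lies between -1.80 and -1.49 and *Ripk3*, *Mlkl* and *Padi4* at 0.95 or above under each alternative, while *Padi2* runs from -0.47 to 1.25.

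Within a library the ratio of 2 genes does not depend on the scaling. A total of 3 such ratios of counts were compared between the groups by a two-sided exact permutation test, whose smallest possible p is 0.0286 for 4 libraries against 4. The ratio of *Mlkl* to *Gsdmd*, the executioners of necroptosis and pyroptosis, was 0.00883, 0.0159, 0.0120 and 0.00816 in WT libraries 1 to 4 and 0.0270, 0.0312, 0.0395 and 0.0421 in *Cxcr2-/-* libraries 1 to 4. The groups lay apart, with a difference in the mean log2 ratio of 1.67 (exact permutation test, p = 0.0286, 0.0857 after Benjamini-Hochberg adjustment over the 3 ratios). The ratio of *Ripk3* to *Casp8*, the kinase and its restraint, was 0.192, 0.373, 0.176 and 0.204 in WT libraries and 0.369, 0.338, 0.473 and 0.362 in *Cxcr2-/-* libraries. WT library 2 lay within the *Cxcr2-/-* range and decided this comparison. The difference was 0.76 on the log2 scale with it (exact permutation test, p = 0.11, 0.17 after adjustment) and 1.01 without it. Leaving out the overlapping library sets the groups apart. The exact permutation p is then the smallest that 3 against 4 allows (0.0286, not adjusted), so no conclusion is drawn from it. For *Padi4* to *Padi2*, above, the adjusted p was 0.31.

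Per kb of exon the effectors differed widely in abundance. In WT neutrophils *Ninj1* was highest at 96.5 ± 10.5 CPM per kb (SD, n = 4), followed by *Padi4* at 59.1 ± 4.42 and *Gsdmd* at 58.9 ± 4.67, which overlapped. *Casp4* (14.5 ± 1.46) and *Ripk1* (12.5 ± 0.752) overlapped as well, and *Casp8* (7.68 ± 0.797), *Ripk3* (2.22 ± 0.58), *Mlkl* (0.664 ± 0.154) and *Padi2* (0.371 ± 0.0999) came below them without overlap between neighbours. In *Cxcr2-/-* neutrophils *Padi4* led at 141.7 ± 30.4 CPM per kb (SD, n = 4), above *Gsdmd* at 50.3 ± 6.83. *Ninj1* came next at 31.3 ± 5.81, overlapping *Casp4* at 22.9 ± 1.03. Below these stood *Ripk1* at 13.6 ± 0.742, *Casp8* at 12.3 ± 0.394, *Ripk3* at 6.02 ± 1.13, *Mlkl* at 1.78 ± 0.15 and *Padi2* at 0.548 ± 0.335. The exon length is that of the union of all exons in GENCODE M21, so the order depends on that annotation.

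**Figure D3:**
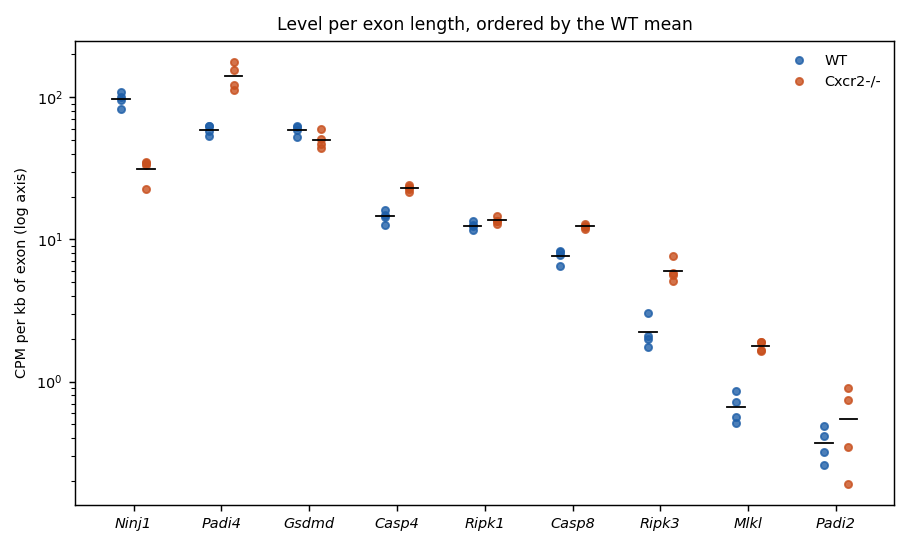
CPM per kb of exon (vertical log axis) of the 9 effectors in the 4 WT (blue) and 4 *Cxcr2-/-* (orange) libraries, ordered by the WT mean, with dashes for the group means. *Ninj1* drops from 96.5 to 31.3 and *Padi4* goes from 59.1 to 141.7, so that the gene in first place differs between the genotypes.

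For each effector, the tested gene with the closest profile over the 8 libraries was found by the smallest root mean square difference of centred log2 CPM. These were *Rhou* for *Padi4* (0.0635), *Metrnl* for *Ninj1* (0.13), *Mrpl49* for *Casp4* (0.0543), *Dynll1* for *Casp8* (0.0449) and *Ddi2* for *Ripk3* (0.198). The closest to *Mlkl* was *Plk4* (0.0484), which encodes the kinase of centriole duplication and rose with it. For the genes that did not pass the test they were *Lrp1* for *Padi2* (0.228), *Cyb561d1* for *Gsdmd* (0.0447) and *Pfkp* for *Ripk1* (0.0369). A profile over 8 libraries of 2 genotypes is a description of likeness only.

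The 21 tested genes listed as partners of NET formation included the deiminase genes *Padi1* and *Padi3* and the nuclease genes *Dnase1* and *Dnase1l3*. Of the 21, 10 rose, 5 fell and 6 did not pass, with a median log2 fold change of 0.60. Over all genes tested 23.7% were higher and 21% lower, so the number that fell was near that background. Among partners with a mean log2 CPM of 3 or more, the 3 with the largest changes were primary granule genes, *Elane* (neutrophil elastase, 1.22 ± 0.746 CPM in WT and 43.8 ± 38.5 CPM in *Cxcr2-/-*), *Prtn3* (proteinase 3, 1.68 ± 1.24 and 48.4 ± 35.9) and *Mpo* (myeloperoxidase, 2.81 ± 2.35 and 66.5 ± 60.3, SD, n = 4 each). *Ctsg*, the cathepsin G gene, which lay under that minimum and was named after its values were seen, had a larger log2 fold change, 5.24, from 0.217 ± 0.25 to 7.98 ± 8.42 CPM. *Mpo* was at 19.1, 20.2, 81.2 and 146 CPM in *Cxcr2-/-* libraries 1 to 4 and at 1.13 to 6.25 CPM in WT. Within the *Cxcr2-/-* group, libraries 3 and 4 were the highest for *Mpo* and *Elane* and the lowest for *Padi4*. With libraries 1 and 2 alone against WT, the log2 fold change went from 5.15 to 3.42 for *Elane* and from 4.58 to 2.80 for *Mpo*, past the test in both. Of the NADPH oxidase, whose oxidants help to start NETs, *Cybb*, the catalytic subunit, rose from 1258 ± 68.5 to 2727 ± 404 CPM (log2 fold change 1.12 ± 0.12, SE), and *Ncf1* (0.64), *Ncf4* (0.72) and *Rac2* (0.65) rose as well. *Lmnb1*, the nuclear lamin that must give way before chromatin leaves, fell (-0.98), as did *Clec7a*, the receptor dectin-1 for fungal glucan (1101 ± 157 and 349 ± 49.1 CPM, log2 fold change -1.66 ± 0.14, SE). *Selplg*, the selectin ligand, fell by a small margin (-0.33, adjusted p = 0.036 in edgeR's quasi-likelihood test) but did not pass without WT library 1, 3 or 4 (-0.25, -0.37 and -0.34) or without *Cxcr2-/-* library 2 or 4 (-0.28 and -0.31), nor with the non-neutrophil covariate or with *Cxcr2-/-* libraries 1 and 2 alone. The integrin gene *Itgb2* did not pass edgeR's quasi-likelihood test (0.25, adjusted p = 0.13). It passed as higher with *Cxcr2-/-* libraries 1 and 2 alone (0.39, adjusted p = 0.037), and was at -0.05 with the percent of pairs outside genes as a covariate. Another deiminase gene, *Padi3*, named after its values were seen, rose from 2.61 ± 0.467 to 5.25 ± 1.05 CPM (log2 fold change 1.01). With the percent of pairs outside genes as a covariate, *Ncf1*, *Ncf4*, *Rac2*, *Lmnb1* and *Padi3* did not pass (adjusted p from 0.084 to 0.28).

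Among the partners of pyroptosis the largest changes were downward. Of 30 genes listed, 29 were found and 27 tested, of which 5 rose, 9 fell and 13 did not pass, with a median log2 fold change of 0.16 (*Gsdma* and *Gsdmc*, other gasdermin genes, had no counts in any library). The numbers are to be read beside the 23.7% higher and 21% lower of all genes tested. *Nlrp3*, the inflammasome sensor, was at 963, 1041, 982 and 1203 CPM in WT libraries 1 to 4 and at 182, 165, 238 and 237 CPM in *Cxcr2-/-* libraries 1 to 4, with no overlap. It fell 5.10-fold (log2 fold change -2.35 ± 0.14, SE, edgeR's quasi-likelihood test, adjusted p = 1.78e-07). The sensors *Nlrp1b* (184 ± 14 and 52.8 ± 3.80 CPM) and *Nlrp1a* (15.7 ± 1.45 and 4.82 ± 0.634 CPM) fell as well. So did *Il1b*, the cytokine that leaves through gasdermin pores (4374 ± 818 and 1608 ± 479.8 CPM, log2 fold change -1.44), and *Txnip*, which encodes a thioredoxin-binding protein that can associate with NLRP3 (-1.19). *Nlrp1a* and *Nlrp1b* are close paralogs, and reads they share could be split between them or dropped by the counting. *Irf2*, a transcription factor needed for *Gsdmd* expression and named after its values were seen, fell from 163 ± 7.42 to 116 ± 9.08 CPM (log2 fold change -0.49 ± 0.09, SE). *Casp1*, the caspase of the inflammasome and also named after its values were seen, was higher by 0.33 on the log2 scale (adjusted p = 0.017 in edgeR's quasi-likelihood test), but did not pass without WT library 2 (0.25, adjusted p = 0.078) or without *Cxcr2-/-* library 2 (0.28, adjusted p = 0.051). It also missed the threshold under upper-quartile normalization (adjusted p = 0.10), total-count scaling (0.053), the non-neutrophil covariate (0.16) and the covariate of pairs outside genes (0.38). The number that rose depended on the fit: 3 rose without WT library 2, without *Cxcr2-/-* library 3 or without *Cxcr2-/-* library 4, and 2 rose under upper-quartile normalization or scaling by total counts.

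Of 37 tested partners of necroptosis, 12 rose, 10 fell and 15 did not pass, with a median log2 fold change of 0.04. With 23.7% higher and 21% lower over all genes tested, the list was not far from the background, and under upper-quartile or total-count scaling 8 rose and 12 fell. *Tnfaip3*, which encodes the ubiquitin-editing enzyme A20 that restrains RIPK signalling, was at 309, 326, 269 and 368 CPM in WT libraries 1 to 4 and at 67.4, 55.0, 162 and 162 CPM in *Cxcr2-/-* libraries 1 to 4. Each *Cxcr2-/-* value was below each WT value, and libraries 3 and 4 were the higher ones, with a log2 fold change of -1.51 ± 0.30 (SE), or -2.39 with libraries 1 and 2 alone. *Ikbke*, a kinase related to TBK1, rose from 11.9 ± 0.969 to 26.2 ± 2.47 CPM (log2 fold change 1.15 ± 0.11, SE), and the death receptor gene *Fas* fell from 50.8 ± 6.66 to 26.3 ± 2.86 CPM (-0.95 ± 0.11, SE). A further 2 genes of this list were named after their values were seen. *Fadd*, the adaptor that joins caspase-8 to death receptors, rose from 1.53 ± 0.384 to 3.67 ± 0.665 CPM (log2 fold change 1.27). *Zbp1*, the nucleic acid sensor that can engage RIPK3 without RIPK1, was at 1.82 to 3.40 CPM in WT and at 23.8, 5.70, 6.63 and 6.68 CPM in *Cxcr2-/-* libraries 1 to 4 (log2 fold change 2.01, edgeR's quasi-likelihood test, adjusted p = 0.00196), with library 1 far above the rest. Without *Cxcr2-/-* library 1 its log2 fold change was 1.26, past the test. The pyroptosis partners *Gbp2*, *Gbp3*, *Gbp5* and *Gbp7*, named after their values were seen, were also highest in *Cxcr2-/-* library 1 and did not pass the test. *Gbp2* was at 214 CPM there and at 54.9, 59.1 and 72.0 CPM in *Cxcr2-/-* libraries 2 to 4. With the percent of pairs outside genes as a covariate *Tnfaip3*, *Fadd* and *Zbp1* did not pass (adjusted p of 0.091, 0.065 and 0.45).

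**Figure D4:**
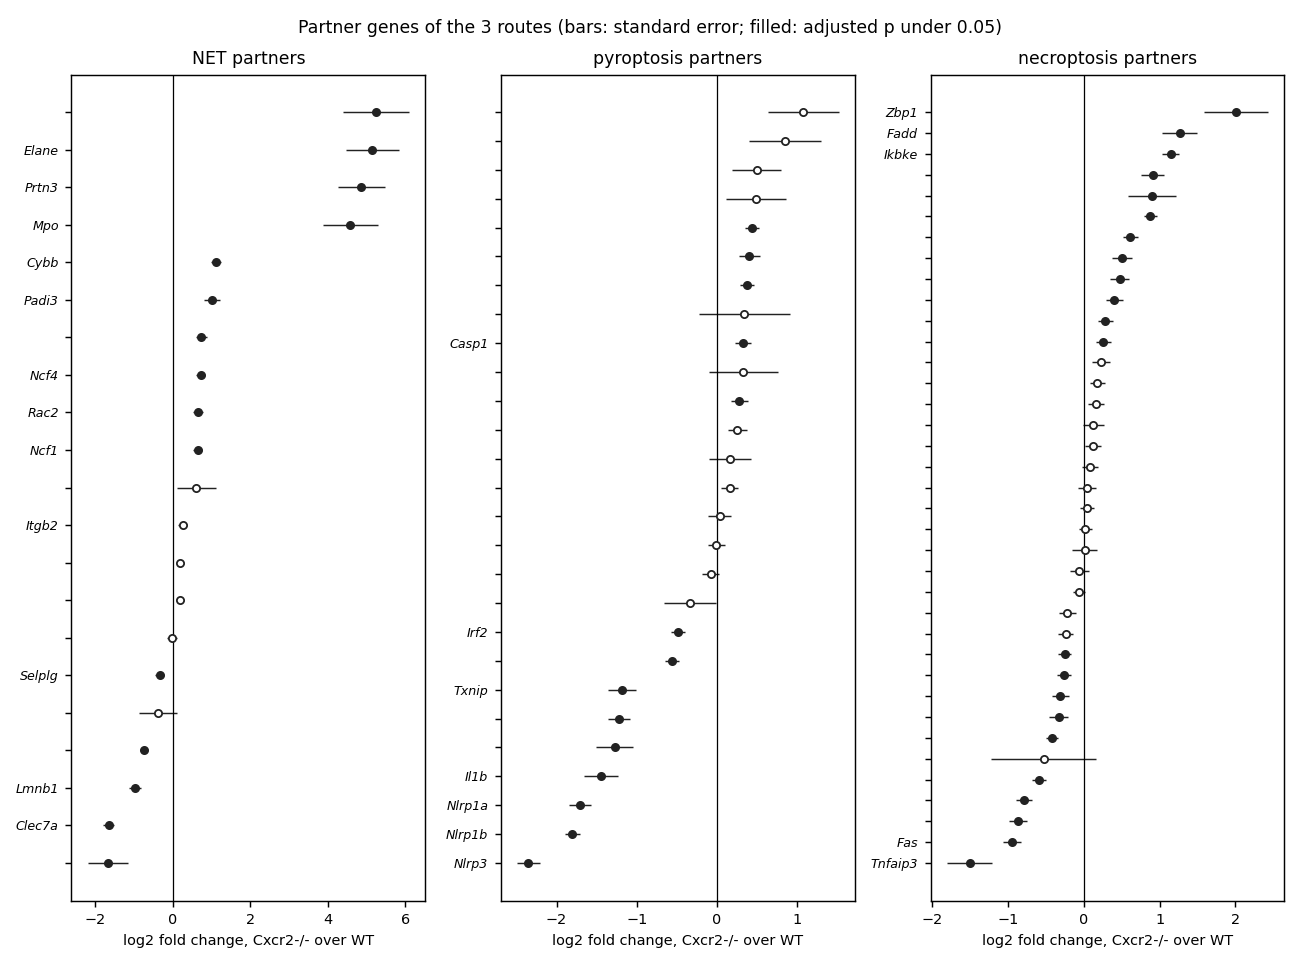
Log2 fold change (horizontal axes, *Cxcr2-/-* over WT) of the tested partner genes of NET formation (21), pyroptosis (27) and necroptosis (37). Bars show the standard error, and points are filled where the adjusted p was under 0.05. Most genes described in the text are named, though not *Ctsg*, at 5.24 the highest point of the NET panel, nor the *Gbp* genes. *Elane*, *Prtn3* and *Mpo* lie near 5 in the NET panel, *Nlrp3* lies at -2.35 in the pyroptosis panel, and the necroptosis panel runs from *Zbp1* (2.01) to *Tnfaip3* (-1.51).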

How the data were processed

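Spleen neutrophils of 4 WT and 4 *Cxcr2-/-* mice were profiled by bulk RNAseq, 1 library per mouse. Ribosomal RNA was depleted, strand-specific libraries were sequenced from both ends on a NovaSeq, and the authors used STAR (mm10) to align the trimmed reads and HTSeq to count them. The deposited files hold these counts per Ensembl gene, as whole numbers without normalization. Tool versions, the counting annotation and its strand setting are not given in the sources used here, so counts of overlapping and antisense genes are uncertain. The totals that HTSeq adds for pairs not counted on a gene (42.4% to 53.6% of pairs, with 26.7% to 41.5% outside any gene) were kept out of library sizes and tests.

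Symbols and positions came from GENCODE M21 (GRCm38) by identifier without its version: 52081 of 55414 identifiers matched, and 1.43% of the counts lay on the rest. Only 35 identifiers had the same version, so the counting used another annotation release. Each pair of replicates of a genotype differed beyond sampling noise. Genes were tested in R 4.3.3 with edgeR 4.0.16 (quasi-likelihood test, TMM, filterByExpr, Benjamini-Hochberg adjustment), with the 4 libraries of each genotype and no covariate, after the steps were tested on simulated data. With 200 changes planted among 16778 genes, edgeR called 98.0% of the 4-fold and 74.3% of the 2-fold ones, and 13 unchanged genes. Far fewer genes changed there than the 44.7% called here, so the simulation does not test the scaling under so wide a change. SE is the log2 fold change divided by the square root of F. Ratios of counts, with 0.5 added to each count, were compared with exact permutation tests. Depth was 34220182 to 46233555 counts on genes per library, and genes with under 200 counts, such as *Mlkl* and *Padi2*, have the least precise values.

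Members and gene lists were chosen with earlier results of these data known. The genes named are the 9 effectors, *Cxcr2*, the 3 largest changes of each partner list among genes with an adjusted p under 0.05 and a mean log2 CPM of 3 or more, list genes above 500 CPM, and the gene most alike each effector under the same minimum, other genes being marked as named after their values were seen or used to describe the libraries. The alternatives were DESeq2 1.42.0, RLE, upper-quartile and total-count scaling, no filter and at least 10 counts in every library, a replicate block, a covariate of non-neutrophil markers, each library left out in turn and 5 added to the counts of a ratio. Chosen after seeing the data were the percent of pairs outside genes as a covariate and *Cxcr2-/-* libraries 1 and 2 alone. The labels give no batch. Not all genes the rule selects are reported here. Promoters came from RefSeq (GRCm38.p6).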

Additional observations from a re-analysis of the deposited data

Results flagged for a closer look

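The level of *Ninj1* in *Cxcr2-/-* library 2, 35.5 CPM, stood apart from the 52.4, 54.6 and 53.9 CPM of the other *Cxcr2-/-* libraries by Dixon's test at the 95% level. It was the only 1 of 18 groups (9 effectors in 2 genotypes) so marked, and chance marks about 1 in 20. Without that library the log2 fold change of *Ninj1* was -1.49 and passed edgeR's quasi-likelihood test.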

How the results depend on the processing

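A total of 18 alternatives were run for the effectors and lists, and 10 for each ratio. *Padi4*, *Casp4*, *Ninj1*, *Ripk3*, *Mlkl* and *Casp8* passed in the same direction under all 18, and *Ripk1* passed under none. The log2 fold change ran from 0.95 to 1.48 for *Padi4*, from 0.54 to 0.69 for *Casp4*, from 1.27 to 1.66 for *Ripk3*, from 1.29 to 1.71 for *Mlkl* and from 0.57 to 0.72 for *Casp8*. The effectors that fell numbered 2 in place of 1, *Gsdmd* with *Ninj1*, under upper-quartile normalization, total-count scaling, at least 10 counts in every library and the non-neutrophil covariate, and 1 to 2 with each library left out (2 without WT library 2 or *Cxcr2-/-* library 1). *Padi2* turned to -0.47 with *Cxcr2-/-* libraries 1 and 2 alone. With pairs outside genes as a covariate, 5 NET partners rose and 3 fell, 1 pyroptosis partner rose, and 3 necroptosis partners rose and 5 fell, while calls over all genes went from 7495 to 3083. With the non-neutrophil covariate 3 NET partners fell. With each library left out, 3 to 5 NET partners fell (3 without *Cxcr2-/-* library 2) and 3 to 5 pyroptosis partners rose, and 2 rose under upper-quartile normalization and total-count scaling. The cause was not tested. Upper-quartile normalization moved the median log2 fold change of all genes by -0.12, and the share of calls that were higher went from 53.0% to 41.2%. With total-count scaling it was 44.3%. The *Ripk3* to *Casp8* difference ran from 0.65 to 1.01 with each library left out.

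Same-numbered WT and *Cxcr2-/-* libraries deviated together with r of 0.14, -0.20, 0.21 and -0.30 for numbers 1 to 4. Libraries of different numbers ran from -0.24 to 0.30, so same-numbered libraries were not more alike by this measure. Whether they were handled together is not given in the labels. The replicate block called 7068 genes in place of 7495 and changed no call of an effector. For the *Mlkl* to *Gsdmd* ratio the paired difference was 1.67 with an exact sign-flip p of 0.125, the smallest that 4 pairs allow.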
